A study of Mus musculus with 10 samples.

Results

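The interferon response and antigen presentation genes of the left ventricle (LV) were followed as 44 named genes of 55401 in the gene tables: 32 interferon-stimulated genes, 7 genes of major histocompatibility complex (MHC) class I presentation and 5 of MHC class II presentation. They were chosen by name, with no measured value in the rule but with earlier results of these data known. Every one was found in all 10 libraries. Of the 44, 41 reached the mean of 1 FPKM (a level scaled to gene length and library depth) needed for the test, and Mx1, Nlrc5 and Ciita did not. LV RNA was compared between 5 mice with neonatal ascending aorta constriction (nAAC), in which the aorta was narrowed within a day of birth to load the LV with pressure, and 5 mice with sham surgery. All 10 were wild-type (WT) mice taken at 4 weeks of age, had been raised with their mothers and gave 1 bulk LV library each, so no cell type was sorted. Because tissue was bulk, more cells of a type and more RNA per cell cannot be told apart.

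Interferons are secreted when cells sense foreign or misplaced nucleic acid. Type I interferons signal through JAK kinases to factors that bind the interferon-stimulated response element (ISRE) of their target genes, and interferon gamma signals to the gamma-activated site (GAS). The genes switched on encode antiviral effectors, GTPases of the defence against intracellular pathogens, and the machinery of MHC class I, which shows peptides made inside a cell. MHC class II shows peptides taken up from outside and is made mainly by macrophages, dendritic cells and B cells.

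A gene passed the test when its limma adjusted p was below 0.05, and its log2 FC is the difference of mean log2(FPKM + 1), nAAC minus sham. In nAAC LV 8 of the 31 interferon-stimulated genes tested passed, in both directions. Ifitm2, Ifitm3, Ifi27, Ifi27l2a, Ifit2, Oasl2 and Irf8 rose, Igtp fell, and the other 23 interferon-stimulated genes tested did not pass the test. Of class I only Tapbp passed, by rising, and no class II gene tested passed. In all, 8 of the 41 genes tested were higher in nAAC (19.5%), against 27.1% of all 11867 genes tested, and 1 was lower (2.44%), against 4.6% of all genes. The median log2 FC of the 41 was 0.28, beside 0.22 for all genes tested.

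The promoter letters are shown first because the ISRE is what most of the interferon-stimulated promoters found here have in common. RefSeq promoter sequences of the GRCm38.p6 build, covering 250 bases before and 50 bases after each start site, were found for 26 of the 32 interferon-stimulated genes, 5 of the 7 class I genes and 2 of the 5 class II genes. The ISRE was searched as GAAANNGAAA and the GAS as TTCNNNGAA, on both strands and with overlapping matches allowed. An ISRE match lay in 16 of the 26 interferon-stimulated promoters (61.5%), against 3.99% of the 27025 genes in the promoter table and 3.56% of the 8763 tested genes found in it. A GAS match lay in 9 of the 26 (34.6%), against 9.55% and 7.91%. Among class I genes B2m alone held an ISRE, and neither class II promoter held either motif. In the following lines capitals mark the matches, positions are counted from the start site at 0, and each stretch lies upstream of the start site and overlaps no annotated exon. The GTPase genes stand first because their differences lay below 0. Isg15, Ifit1, Ifit3 and Bst2 are shown for their repeated matches, Ifitm2 and Irf8 because they rose, Irf1 for a GAS without an ISRE and B2m for class I.
Gbp3 (chr3:142559984-142560024, + strand, from -60 to -20): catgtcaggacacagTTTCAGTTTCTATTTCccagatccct
Gbp7 (chr3:142530215-142530302, + strand, from -121 to -34): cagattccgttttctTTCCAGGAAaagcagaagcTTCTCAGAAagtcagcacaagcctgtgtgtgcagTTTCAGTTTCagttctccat
Igtp (chr11:58199496-58199541, + strand, from -60 to -15): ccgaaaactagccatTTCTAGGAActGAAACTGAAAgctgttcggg
Isg15 (chr4:156200865-156200911, - strand, from -93 to -47): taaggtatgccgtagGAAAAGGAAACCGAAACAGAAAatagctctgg
Ifit1 (chr19:34640770-34640823, + strand, from -119 to -66): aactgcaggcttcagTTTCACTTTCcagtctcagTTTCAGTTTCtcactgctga
Ifit3 (chr19:34583358-34583426, + strand, from -171 to -103): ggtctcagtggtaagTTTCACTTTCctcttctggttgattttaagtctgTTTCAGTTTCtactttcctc
Bst2 (chr8:71537577-71537623, - strand, from -151 to -105): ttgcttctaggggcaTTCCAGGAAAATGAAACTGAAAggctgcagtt
Ifitm2 (chr7:140955988-140956022, - strand, from -61 to -27): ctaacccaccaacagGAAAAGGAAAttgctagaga
Irf1 (chr11:53769909-53769942, + strand, from -105 to -72): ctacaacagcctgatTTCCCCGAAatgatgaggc
Irf8 (chr8:120736172-120736223, + strand, from -186 to -135): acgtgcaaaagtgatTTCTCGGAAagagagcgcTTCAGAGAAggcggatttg
B2m (chr2:122147533-122147567, + strand, from -154 to -120): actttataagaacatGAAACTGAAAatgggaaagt

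Ifit1, Ifit3, Isg15 and Bst2 held 2 or 3 ISRE matches each in the stretch shown, and none of them passed the test between nAAC and sham. Of the 16 interferon-stimulated genes with an ISRE, 2 rose (Ifitm2 and Ifitm3), 1 fell (Igtp) and the median log2 FC was 0.13. Of the 10 with a promoter sequence and no ISRE, 3 rose (Ifit2, Irf8 and Oasl2) and the median was 0.44, where 27.1% of all genes tested were higher. With median-ratio scaling these medians were -0.07 and 0.21. Both Irf1 and Irf8 carried GAS matches and no ISRE. All 5 GTPase genes of the list held an ISRE, Gbp2 and Irgm1 included. These matches are descriptions of letters in a window, and the difference between the gene sets was not tested.

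The libraries differed in several measures besides the genes followed here. Genes at 1 FPKM or more numbered 11889 to 12455 in nAAC and 11182 to 11721 in sham, without overlap (two-sided exact permutation p = 0.0079). Aligned bases per library, estimated from the deposited coverage and FPKM, were 4.86 to 6.82 gigabases in nAAC and 5.06 to 5.24 in sham. Mitochondrial transcripts took 32.8 to 39.9% of TPM (length-scaled transcript share) in nAAC and 33.7 to 49.8% in sham. The female-specific transcript Xist was at 14.8 FPKM or more in 4 nAAC mice and at 0.0232 in nAAC 2, whereas in sham it was at 3.70 in sham 4, 10.6 in sham 5 and near 0 in the other 3 (exact permutation p = 0.024), so sex and operation were partly mixed. The first principal component (54.7% of variance) separated the groups, and on the second (19.96%) sham 4 lay far from the rest. The nAAC 4 mouse had the highest value among nAAC mice for 42 of the 44 genes, whereas it was highest for 43.2% of all genes tested. Sham 4 was the highest sham mouse for 18 of the 44, including all 4 class II genes tested, against 34.7% of all genes. Leaving out nAAC 4 changed no call among the 41 genes tested, and leaving out sham 4 changed those of Ifi35, Ifitm1 and Igtp.

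**Figure D1:**
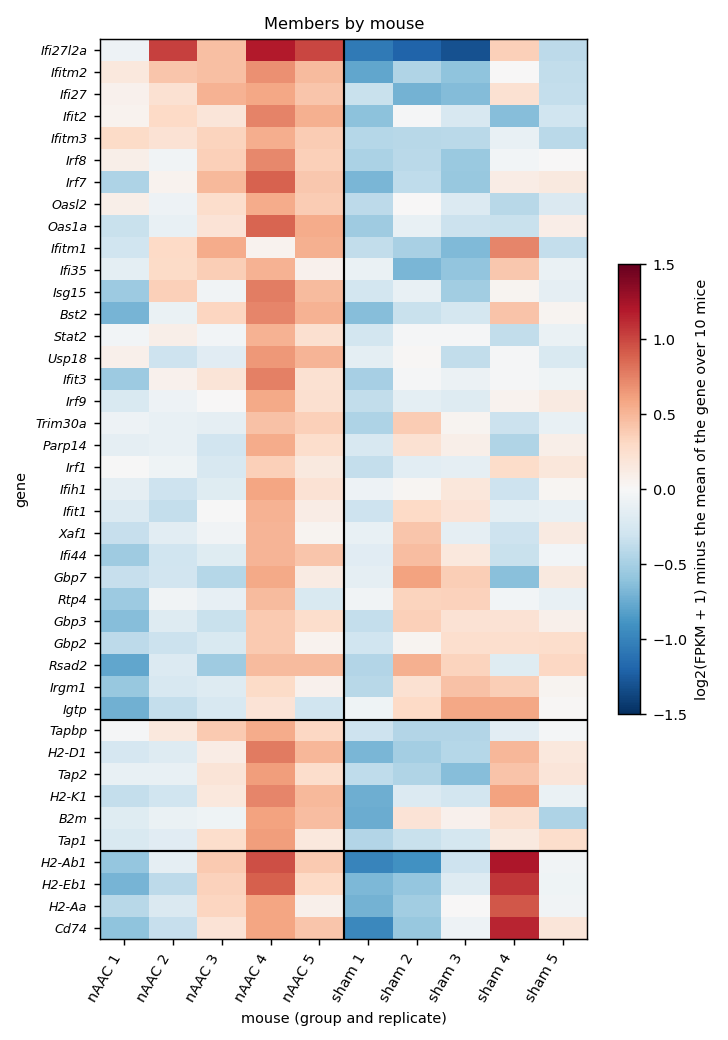
Heat map of the 41 genes tested (rows, ordered within interferon-stimulated, MHC class I and MHC class II blocks by log2 FC) in 10 mice (columns); colour is log2(FPKM + 1) minus the mean of that gene over the 10 mice. The nAAC 4 column is red in nearly every row, and the sham 4 column is red in the class II block. The bottom rows of the interferon-stimulated block hold the GTPase genes, with the effector genes Rsad2 and Rtp4 among them. The GTPase rows are paler or bluer in most nAAC mice than in most sham mice.

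Ifitm2 and Ifitm3 encode small membrane proteins that block virus entry, and they were the most abundant of the interferon-stimulated genes. Ifitm3 (chr7:141009586-141010770 in the mm10 build of the files) stood at 94.5, 89.5, 96.9, 112.7 and 100.1 FPKM in nAAC 1 to 5 and at 56.7, 57.6, 57.9, 71.4 and 58.0 in sham 1 to 5. The groups did not overlap, as for 18.9% of all genes tested in this direction, and sham 4 was the highest sham mouse. Ifitm3 averaged 98.7 ± 8.71 against 60.3 ± 6.24 FPKM (SD, n = 5 each), and its log2 FC was 0.70 ± 0.12 (SE, limma adjusted p = 0.00075). Ifitm2 (chr7:140954837-140955987) was at 68.3, 81.9, 83.9, 99.1 and 85.6 FPKM in nAAC and at 35.0, 44.4, 39.7, 61.6 and 47.2 in sham. Here too no nAAC value reached down to a sham value, with a log2 FC of 0.88 ± 0.16 (adjusted p = 0.0011). Of the Ifitm2 transcript 48.5% lay in stretches of 50 bases shared with other genes, mainly its overlapping neighbour Gm45717, so its reads may have been split. Ifitm1 was at 2.79 to 5.87 FPKM in nAAC and 1.96 to 6.76 in sham, with sham 4 highest of all, and did not pass (log2 FC 0.46 ± 0.25, adjusted p = 0.17), while without sham 4 it did (0.70, adjusted p = 0.0075).

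Ifi27 and Ifi27l2a lie side by side on chromosome 12 and encode small hydrophobic proteins, ISG12 family members, of the mitochondrial or nuclear membrane. Ifi27l2a (chr12:103442167-103443680) was at 15.3, 34.0, 22.4, 38.3 and 33.4 FPKM in nAAC and at 7.26, 6.49, 5.96, 21.1 and 12.1 in sham. Among nAAC mice, 4 of 5 exceeded the highest sham mouse, sham 4, and nAAC 1 did not. Its means were 28.7 ± 9.51 and 10.6 ± 6.36 FPKM, a ratio of 2.71. Its log2 FC of 1.44 ± 0.32 (adjusted p = 0.0046) was the largest of the 41, and Ifi27l2a was the only one past the thresholds of a differentially expressed gene (DEG: log2 FC beyond 1 in size and adjusted p below 0.05), against 5.01% of all genes called DEG and higher. Ifi27 (chr12:103434211-103440239) was at 14.9, 16.8, 20.8, 21.6 and 19.3 FPKM in nAAC and at 11.1, 8.32, 8.64, 16.8 and 10.8 in sham. The overlap was again between nAAC 1 and sham 4, and Ifi27 rose by a log2 FC of 0.73 ± 0.17 (adjusted p = 0.0070).

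The IFIT proteins bind foreign RNA, and of their 3 genes on the list only Ifit2 passed the test. Ifit2 was at 5.06, 6.22, 5.62, 8.82 and 7.46 FPKM in nAAC and at 2.81, 4.80, 3.95, 2.75 and 3.78 in sham. Its groups did not overlap, and the log2 FC was 0.72 ± 0.16 (adjusted p = 0.0044). Ifit1 was at 1.61 to 3.81 FPKM in nAAC and 1.70 to 3.12 in sham (log2 FC 0.02 ± 0.17, adjusted p = 0.93). Ifit3 was at 3.68 to 10.5 and 3.85 to 5.78 FPKM (log2 FC 0.27 ± 0.20, adjusted p = 0.31), and it shares 51.2% of its transcript in stretches of 50 bases with Ifit3b. The test of 1 gene against another was not run. Ifitm2, Ifitm3, Ifi27, Ifi27l2a and Ifit2 passed whichever single mouse was left out, and also when libraries were rescaled by median ratios or when trends with gene length and GC content were removed.

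**Figure D2:**
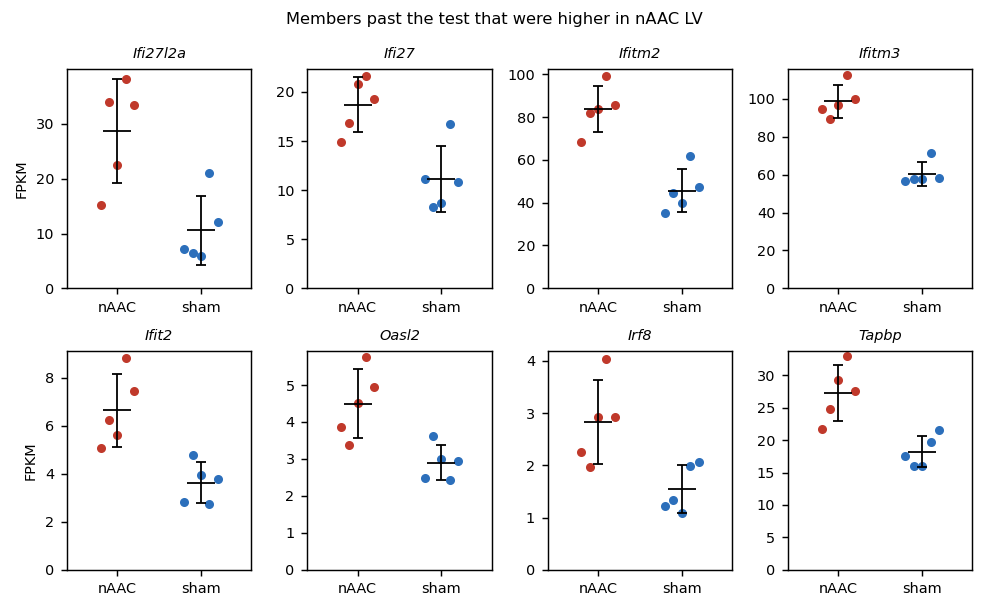
FPKM of the 8 genes that passed the test as higher in nAAC, by group (points, 1 mouse each, replicates 1 to 5 from left to right; black bar and whiskers, mean and SD, n = 5; each axis starts at 0). Ifitm2, Ifitm3, Ifit2 and Tapbp show groups that do not overlap, and in Ifi27l2a and Ifi27 1 sham mouse, sham 4, lies within the nAAC range.

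Oasl2, an antiviral protein related to the 2'-5'-oligoadenylate synthetases that sense double-stranded RNA, was at 3.86, 3.37, 4.53, 5.76 and 4.95 FPKM in nAAC and at 2.49, 3.61, 2.99, 2.44 and 2.94 in sham. Only nAAC 2 fell below the highest sham mouse, and the log2 FC was 0.49 ± 0.14 (adjusted p = 0.016). The call was lost with median-ratio scaling (adjusted p = 0.16) and with the length and GC trends removed (adjusted p = 0.15). Oas1a did not pass (0.839 to 3.26 FPKM in nAAC and 0.608 to 1.49 in sham, log2 FC 0.48 ± 0.21, adjusted p = 0.099), and 57.6% of its transcript is shared with Oas1g. Bst2, the tethering protein that holds budding viruses at the membrane, was at 9.08, 14.3, 19.4, 26.1 and 22.5 FPKM in nAAC and 9.48, 11.9, 12.6, 20.9 and 15.9 in sham. The lowest value of the 10 was an nAAC mouse and so was the highest, and Bst2 did not pass (log2 FC 0.31 ± 0.26, adjusted p = 0.38). Of the 18 effector genes tested, 6 rose (33.3%, against 27.1% of all genes tested), none fell and 12 did not pass. Their median log2 FC was 0.37. Ifi35, a factor of innate signalling, had a log2 FC of 0.43 (adjusted p = 0.11) and passed without sham 4 (0.59, adjusted p = 0.017) and with TPM (0.61, adjusted p = 0.041). TPM moved the median log2 FC of all genes from 0.22 to 0.39. Rsad2, which makes a chain-terminating nucleotide, had -0.22 (0.53), and Xaf1, Trim30a, Rtp4, Ifi44 and Parp14 lay between -0.19 and 0.19. The RNA sensor Ifih1 had a log2 FC of 0.06 ± 0.17 (adjusted p = 0.79). Mx1, below the level needed for the test, was at 0.0685 to 0.40 FPKM in nAAC and 0.0249 to 0.215 in sham.

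Isg15, a ubiquitin-like protein attached to others, and Usp18, the enzyme that removes it, both failed to pass. Isg15 was at 2.18 to 6.95 FPKM in nAAC and 2.24 to 3.81 in sham (log2 FC 0.40 ± 0.21, adjusted p = 0.17). Usp18 was at 1.14 to 3.19 and 1.05 to 1.70 FPKM (log2 FC 0.30 ± 0.18, adjusted p = 0.21). Without nAAC 1, Isg15 (adjusted p = 0.023), Oas1a (0.031) and Irf7 (0.021), a transcription factor gene, passed as higher.

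Among the 5 transcription factor genes of the list only Irf8 passed. Irf8, a factor of macrophage and dendritic cell development, was at 2.26, 1.96, 2.93, 4.05 and 2.92 FPKM in nAAC and at 1.21, 1.33, 1.09, 1.99 and 2.07 in sham. Only nAAC 2 fell within the sham range, and the log2 FC was 0.58 ± 0.16 (adjusted p = 0.015). With the length and GC trends removed Irf8 did not pass (log2 FC 0.28, adjusted p = 0.092). Irf7, the amplifier of type I interferon genes, was at 2.97 to 9.12 FPKM in nAAC and 2.41 to 5.08 in sham and did not pass (log2 FC 0.55 ± 0.24, adjusted p = 0.097), while with TPM it did (0.73, adjusted p = 0.042). It overlaps Phrf1 on the opposite strand, and strandedness was not stated. Stat2 (log2 FC 0.31, adjusted p = 0.088), Irf9 (0.21, 0.32) and Irf1 (0.08, 0.70) did not pass, and Irf9 overlaps Rnf31 on its own strand. With TPM Stat2 passed as higher (0.48, adjusted p = 0.024). The median log2 FC of all genes was 0.39 with TPM and 0.22 with FPKM.

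Irf8 is expressed in macrophages, so their markers were measured beside it. The 15 macrophage and leukocyte markers summed to 174 to 340 FPKM in nAAC and 116 to 242 in sham, with no marker listed at 0 in all libraries (two-sided exact permutation p = 0.071). Of 12 tested, the complement genes C1qa, C1qb and C1qc rose (25%, against 27.1% of all genes tested) and 9 did not pass. All 3 calls were lost with Xist as a covariate, and with median-ratio scaling C1qb was lost (adjusted p = 0.0501) and the scavenger receptor gene Cd163 passed as lower (log2 FC -0.69, adjusted p = 0.030). The 8 fibroblast markers summed to 986 to 1488 FPKM in nAAC and 649 to 902 in sham, without overlap (exact permutation p = 0.0079, the smallest 5 against 5 mice can give). Of the 8, Dcn, Lum, Tcf21, Col1a1 and Postn rose (62.5%, against 27.1% of all genes tested) and 3 did not pass. With median-ratio scaling, Xist as a covariate or a replicate block, only Tcf21, Col1a1 and Postn passed. The same held without nAAC 1, nAAC 4, nAAC 5, sham 1 or sham 3. The 8 endothelial markers summed to 234 to 377 FPKM in nAAC and 205 to 313 in sham. Of the 8, 2 rose (25%, against 27.1% of all genes tested) and none fell. The 9 cardiomyocyte markers summed to 13850 to 21758 and 15964 to 27634 FPKM. Of the 9, 1 rose (11.1%) and 2 fell (22.2%, against 4.6% of all genes tested). The 6 mural cell markers summed to 264 to 375 and 183 to 324 FPKM, and 3 rose (50%). With median-ratio scaling 1 endothelial marker rose, 3 cardiomyocyte markers fell, and 1 mural marker rose and 1 fell. That scaling called 13.2% of all genes higher and 12.1% lower. The 5 atrial markers summed to 138 FPKM in nAAC 2 and 231 in nAAC 3, against 5.62 to 47.9 in the other 8 mice. The part of these cell types in the risen genes was not tested.

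**Figure D3:**
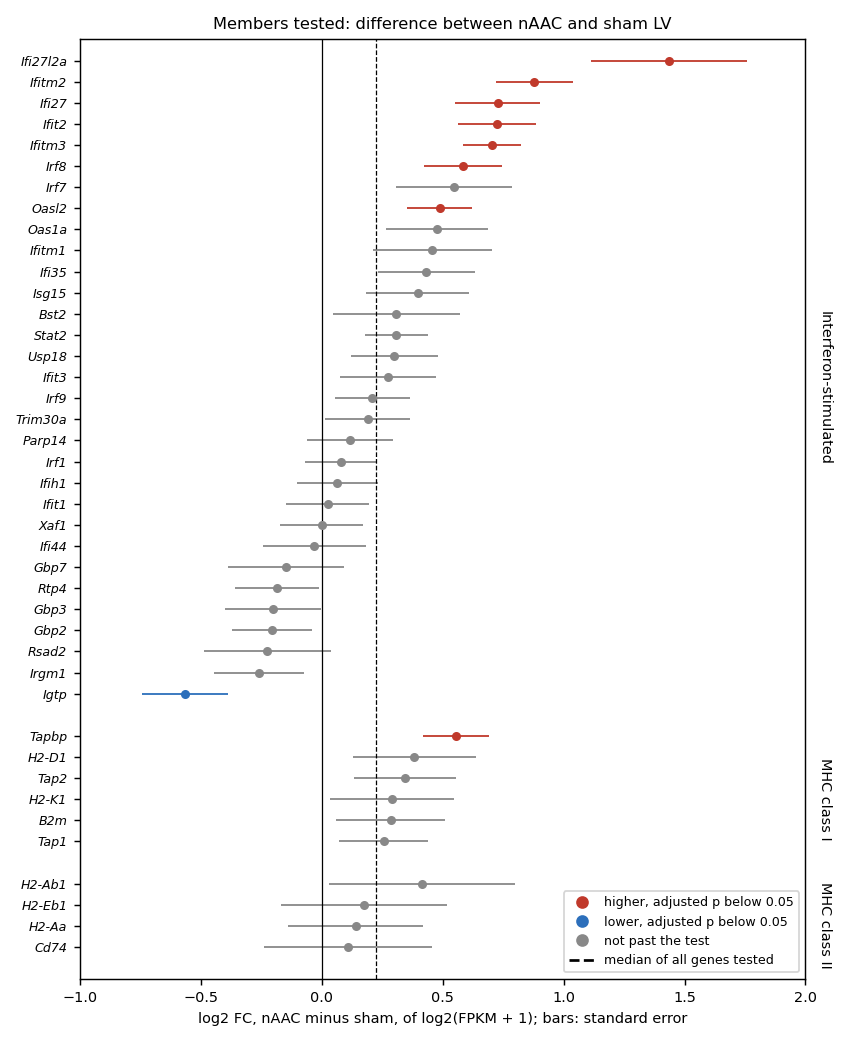
Difference between nAAC and sham for each gene tested (points, log2 FC of log2(FPKM + 1); bars, SE; 5 mice per group), with interferon-stimulated, class I and class II genes in separate blocks. Of 41 genes 8 lie to the right in red and Igtp to the left in blue, and the dashed line marks the median of all genes tested at 0.22.

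The interferon-inducible GTPases, which take part in defence against intracellular pathogens, lay on the other side. Igtp (chr11:58199556-58207591) was at 2.12, 3.001, 3.36, 4.90 and 3.17 FPKM in nAAC and at 3.91, 5.30, 6.65, 6.68 and 4.20 in sham. Among nAAC mice, 4 of 5 lay below the lowest sham mouse and nAAC 4 lay within the sham range. Igtp averaged 3.31 ± 1.01 and 5.35 ± 1.31 FPKM, and its log2 FC was -0.57 ± 0.18 (adjusted p = 0.029). This call was weak: it was lost without nAAC 1 (adjusted p = 0.065), nAAC 2 (0.058), nAAC 5 (0.057), sham 2 (0.051), sham 3 (0.074) or sham 4 (0.0501), while over the fits without 1 mouse the log2 FC stayed between -0.69 and -0.46. It was also lost with TPM (adjusted p = 0.069) and without the filter on low values (0.080). Igtp overlaps Irgm2 and shares 12.3% of its transcript with it.

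The other 4 GTPase genes of the list, Gbp2 (log2 FC -0.21), Gbp3 (-0.20), Gbp7 (-0.15) and Irgm1 (-0.26), were also below 0 and did not pass, and all 5 were below 0 under each alternative run. Gbp2 was at 4.42 to 8.35 FPKM in nAAC and 4.81 to 7.59 in sham, and Irgm1 at 3.99 to 8.04 and 4.54 to 9.05. The median of the 5 genes was -0.21, a difference of -0.43 from that of all genes. With median-ratio scaling, which moved the median of all genes from 0.22 to -0.00076, 3 of the 5 passed as lower: Gbp2 (adjusted p = 0.031), Igtp (0.0041) and Irgm1 (0.0498). That scaling called 13.2% of all genes higher and 12.1% lower.

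Other genes of the GTPase families stood in the list of 45 further interferon-stimulated genes, and putting them beside the 5 was decided after their values were seen. Of these 15 genes 14 were tested, 12 had a log2 FC below 0, 2 fell and 1 rose. Of all 11867 genes tested, 9089 had a log2 FC above 0. Because the set was gathered with its values seen, this contrast is a description and was not tested. The 15 include Tgtp1 and Tgtp2, which share 89.4% and 89.8% of their transcripts with each other, so their values may not be separate. Iigp1 was at 3.71, 5.24, 5.39, 8.39 and 5.195 FPKM in nAAC and at 16.5, 26.8, 22.7, 18.2 and 13.3 in sham. All nAAC mice lay below all sham mice, as for 3.46% of genes tested, and with a log2 FC of -1.64 ± 0.20 (adjusted p = 5.9e-05) Iigp1 was a DEG, against 0.893% of all genes called DEG and lower. Gbp6 went the other way, from 1.32, 0.991, 2.57, 1.46 and 1.70 FPKM in sham to 3.70, 7.58, 7.06, 7.10 and 4.97 in nAAC. Its log2 FC was 1.43 ± 0.19 (adjusted p = 0.00011), and 59.7% of its transcript is shared with other genes, 51.5% with Gm43302, so the gene that gave the reads is uncertain. With median-ratio scaling 7 of the 14 fell and Gbp6 still rose, where 12.1% of all genes were called lower and 13.2% higher.

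**Figure D4:**
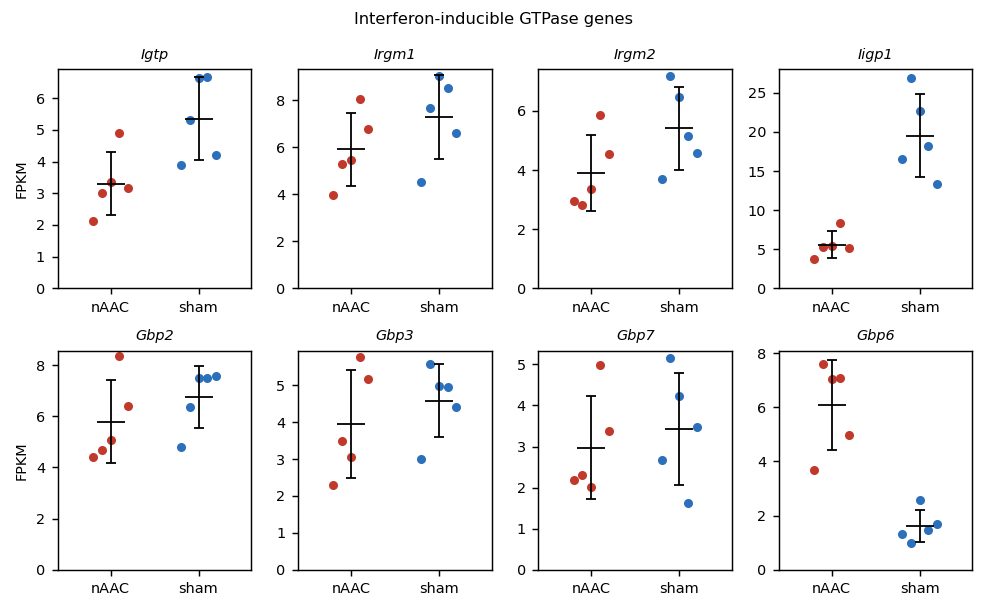
FPKM of 8 interferon-inducible GTPase genes by group (points, 1 mouse each, replicates 1 to 5 from left to right; black bar and whiskers, mean and SD, n = 5; each axis starts at 0). Iigp1 falls from 13.3 to 26.8 FPKM in sham to 3.71 to 8.39 in nAAC, Gbp6 is higher in every nAAC mouse, and the groups overlap in the other 6 panels.

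Over the whole list of 45 further interferon-stimulated genes, 35 were tested. Of these, 6 rose (17.1%, against 27.1% of all genes tested), Iigp1 fell and 28 did not pass, with a median log2 FC of 0.22. Besides Gbp6, the RNA-editing enzyme Adar (3.29 to 4.61 FPKM in nAAC, 1.85 to 2.60 in sham, log2 FC 0.60) and Pml, the scaffold of nuclear bodies (2.76 to 4.00 and 1.02 to 2.42 FPKM, log2 FC 0.61), rose without overlap. Pml did not pass with the length and GC trends removed (adjusted p = 0.16). With median-ratio scaling 4 of the 35 rose and 4 fell, where 13.2% of all genes were called higher and 12.1% lower.

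Upstream of these genes, Ifna1, Ifna2, Ifna4, Ifnb1, Ifng and Ifnk, which encode interferons, were listed at 0 in every library. Of the 21 genes of interferon ligands, receptors and JAK-STAT signalling, 13 were tested. By limma 2 rose (15.4%, against 27.1% of all genes tested), none fell and 5 had an unadjusted p below 0.05. Ifngr1, a chain of the interferon gamma receptor, was at 29.4 to 47.8 FPKM in nAAC and 18.9 to 22.9 in sham (log2 FC 0.79 ± 0.15, adjusted p = 0.0016). Socs3, a feedback inhibitor of JAK signalling, was at 1.25 to 2.71 and 0.60 to 1.13 FPKM (log2 FC 0.62 ± 0.14, adjusted p = 0.0052). Both rose without overlap of the groups. Il10rb, a receptor chain shared with interleukin 10, was lower in every nAAC mouse (29.9 to 39.9 against 41.4 to 57.7 FPKM) and did not pass (log2 FC -0.35, adjusted p = 0.067). With median-ratio scaling Il10rb (log2 FC -0.62, adjusted p = 0.00079) and Ifngr2, the other interferon gamma receptor chain (-0.35, 0.024), passed as lower beside the 2 that rose. With the length and GC trends removed 1 rose, 3 fell and Socs3 was lost (adjusted p = 0.43). With TPM 5 rose, Stat2 among them. The median log2 FC of all genes was -0.014 with the trends removed and 0.39 with TPM. The shares of all genes called in these fits are not given here.

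Of the 18 genes of nucleic acid sensors and adaptors, 11 were tested. Zbp1 stands both in this list and among the 45 further interferon-stimulated genes. Of these, 4 rose (36.4%, against 27.1% of all genes tested) and none fell, where 4.6% of all genes tested were lower. Ticam1, the adaptor of the endosomal RNA receptor TLR3, was at 3.58 to 4.57 FPKM in nAAC and 1.62 to 3.15 in sham (log2 FC 0.62 ± 0.13, adjusted p = 0.0025). Sting1, the adaptor of cytosolic DNA sensing, had a log2 FC of 0.53 (adjusted p = 0.019), Irf5 of 0.46 (0.038) and Mavs, the adaptor of RNA sensing on mitochondria, of 0.35 (0.039), all with overlapping groups. These 3 calls were lost with median-ratio scaling (adjusted p = 0.13, 0.13 and 0.62), with Xist as a covariate and without nAAC 4 or sham 1, and all 4 were lost with the length and GC trends removed. Irf5 was also lost without nAAC 3, nAAC 5, sham 2 or sham 3. Among the fits without 1 mouse, Mavs passed only without sham 4 or sham 5, and it was lost with a replicate block. Sting1 and Irf5 were lost without the filter on low values.

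Class I presentation was represented by its heavy chains H2-K1 and H2-D1, the light chain B2m, the peptide transporter genes Tap1 and Tap2, the loading factor Tapbp and the transactivator Nlrc5. Tapbp (chr17:33915899-33929292), which encodes tapasin, the bridge between transporter and heavy chain, was at 21.8, 24.7, 29.3, 32.9 and 27.6 FPKM in nAAC and at 17.6, 16.03, 16.1, 19.7 and 21.6 in sham. The lowest nAAC mouse lay just above the highest sham mouse, and the log2 FC was 0.55 ± 0.14 (adjusted p = 0.0081). With median-ratio scaling the adjusted p was 0.060, and with the length and GC trends removed it was 0.20. Zbtb22 overlaps Tapbp on the same strand.

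B2m was the most abundant of the 44 genes. It was at 131, 140, 143, 229 and 206 FPKM in nAAC and at 88.7, 172, 156, 177 and 108 in sham. Among nAAC mice, 3 of 5 lay inside the sham range, and B2m did not pass (log2 FC 0.28 ± 0.23, adjusted p = 0.35). H2-K1 was at 43.0, 44.8, 62.1, 92.5 and 78.1 FPKM in nAAC and 32.9, 47.9, 45.5, 84.3 and 51.5 in sham (log2 FC 0.29 ± 0.26, adjusted p = 0.41). H2-D1 was at 48.4, 50.3, 62.6, 99.8 and 82.1 FPKM in nAAC and 35.5, 40.4, 42.8, 82.1 and 64.4 in sham (log2 FC 0.38 ± 0.25, adjusted p = 0.26). For both heavy chains sham 4 reached the level of the higher nAAC mice, and without it their log2 FC were 0.48 (adjusted p = 0.11) and 0.56 (0.074). H2-D1 shares 14.3% and H2-K1 8.11% of the transcript with other genes, so reads of these polymorphic genes may have been split.

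Tap1 was at 2.46, 2.58, 3.84, 5.23 and 3.50 FPKM in nAAC and 1.97, 2.20, 2.36, 3.46 and 3.86 in sham (log2 FC 0.26 ± 0.18, adjusted p = 0.30). Tap2 was at 4.43, 4.46, 5.71, 8.10 and 6.08 FPKM in nAAC and 3.52, 3.31, 2.77, 6.88 and 5.69 in sham (log2 FC 0.35 ± 0.21, adjusted p = 0.22). In both genes 1 nAAC mouse, nAAC 4, lay above all sham mice. Nlrc5, too low to test, was at 0.232 to 0.70 FPKM in nAAC and 0.145 to 0.415 in sham. All 6 class I genes tested had a log2 FC above 0, as did 9089 of all 11867 genes tested, with a median of 0.32, but H2-K1, Tap1 and Tap2 fell below 0 once the length and GC trends were removed, and H2-K1, H2-D1 and Tap1 did with Xist as a covariate.

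Of 17 further class I genes, all tested, 4 rose (23.5%, against 27.1% of all genes tested), 1 fell (5.88%, against 4.6%) and 12 did not pass. Psmb10, an immunoproteasome subunit, was at 24.6 to 38.4 FPKM in nAAC and 10.4 to 26.9 in sham and was a DEG (log2 FC 1.07 ± 0.22, adjusted p = 0.0027). Psme1, an activator subunit of the proteasome, was at 33.7 to 47.1 FPKM in nAAC and 49.9 to 110 in sham, without overlap (log2 FC -0.67 ± 0.20, adjusted p = 0.024). Pdia3, which forms disulfide bonds in the loading complex (log2 FC 0.50, adjusted p = 0.0066), and the non-classical class I gene H2-M3 (0.43, 0.034) also rose. The fourth was the chaperone gene Calr (0.52, 0.034). With median-ratio scaling Pdia3, H2-M3 and Calr were lost (adjusted p = 0.16, 0.16 and 0.25), while Psmb10 rose and Psme1 and the chaperone gene Canx fell. With Xist as a covariate only Psmb10 and Psme1 passed. The Psme1 call was lost without nAAC 1, nAAC 3 or nAAC 5, with TPM and without the filter on low values. H2-M3 and Calr were each lost without nAAC 2, nAAC 4, nAAC 5, sham 1, sham 2 or sham 3, and Calr also without nAAC 3.

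No class II gene passed. By limma 0 of 4 tested were called, 0 had an unadjusted p below 0.05, and 0 had an exact permutation p below 0.05. H2-Aa, an alpha chain, was at 7.28, 8.47, 12.8, 15.6 and 10.7 FPKM in nAAC and at 5.77, 6.67, 10.1, 20.1 and 9.65 in sham (log2 FC 0.14 ± 0.28, adjusted p = 0.72). H2-Ab1, its beta chain partner, was at 4.65, 6.65, 10.1, 15.5 and 10.05 FPKM in nAAC and 3.26, 3.47, 5.82, 18.5 and 7.14 in sham (log2 FC 0.42 ± 0.38, adjusted p = 0.42). In both, sham 4 was above every other mouse and the remaining sham mice were in the lower part of the nAAC range or below it.

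H2-Eb1, a beta chain of the second class II molecule, was at 3.36, 4.38, 7.98, 12.2 and 7.69 FPKM in nAAC and 3.45, 3.73, 5.21, 13.8 and 5.78 in sham (log2 FC 0.17 ± 0.34, adjusted p = 0.72). Cd74, the invariant chain that guards the groove, was at 14.9, 18.2, 26.9, 35.7 and 31.4 FPKM in nAAC and at 11.5, 15.4, 22.1, 52.7 and 26.5 in sham (log2 FC 0.11 ± 0.35, adjusted p = 0.83). Without sham 4 the 4 log2 FC were 0.39 for H2-Aa, 0.77 for H2-Ab1, 0.46 for H2-Eb1 and 0.41 for Cd74, and none passed (adjusted p = 0.17, 0.052, 0.20 and 0.26), where 33.1% of all genes were called higher. The spread between mice within a group was wider than the difference between the groups for each of the 4.

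Ciita, the master activator of class II genes, was at 0.125, 0.379, 0.333, 0.359 and 0.323 FPKM in nAAC and 0.0891, 0.04, 0.137, 0.0313 and 0.128 in sham. Among nAAC mice, 4 of 5 lay above all sham mice and nAAC 1 did not (exact permutation p = 0.024, unadjusted). Ciita was below the level needed for the test, sham 4 held its lowest value while holding the highest of the 4 other class II genes, and Dexi, which overlaps it on the opposite strand, averaged 13.2 FPKM, so these low values are uncertain.

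Macrophage markers were set beside the class II genes in each mouse. The 5 class II genes summed to 30.4, 38.0, 58.1, 79.3 and 60.2 FPKM in nAAC 1 to 5 and to 24.02, 29.3, 43.3, 105 and 49.2 in sham 1 to 5. The macrophage and leukocyte markers of the same mice summed to 211, 174, 176, 340 and 288 FPKM and to 116, 139, 144, 242 and 157. In each group the mouse with the highest marker sum, nAAC 4 or sham 4, had the highest class II sum. The order differed elsewhere, since nAAC 1 had the lowest class II sum among nAAC mice but a higher marker sum than nAAC 2 and nAAC 3. B cell markers summed to at most 2.93 FPKM, T and NK cell markers to at most 1.36 and dendritic cell markers to at most 7.001 in any mouse, and no gene of the B cell list or the T and NK cell list reached the level needed for the test. No marker of these lists was at 0 in all libraries. The part of macrophage number in the class II levels was not tested.

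**Figure D5:**
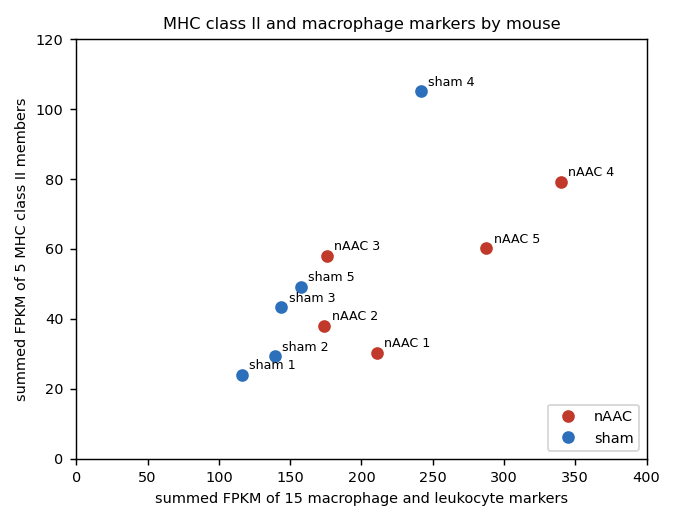
Summed FPKM of the 5 MHC class II genes (y axis) against summed FPKM of 15 macrophage and leukocyte markers (x axis), 1 labelled point per mouse, nAAC red and sham blue. Sham 4 stands highest on the y axis at 105 FPKM with a marker sum of 242, and nAAC 4 is next at 79.3 with the highest marker sum, 340.

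Of 13 further class II genes 9 were tested, 1 rose (11.1%, against 27.1% of all genes tested) and none fell. Ifi30, a lysosomal reductase that unfolds antigens, was at 6.39, 6.13, 7.88, 8.78 and 8.26 FPKM in nAAC and 3.23, 3.29, 3.73, 5.84 and 4.17 in sham. Its groups did not overlap, and the log2 FC was 0.76 ± 0.15 (adjusted p = 0.0020). The antigen-processing proteases Lgmn (log2 FC 0.37, adjusted p = 0.087) and Ctss (0.47, 0.15) and the class II promoter factor Rfxank (0.24, 0.25) did not pass. Without sham 4 Lgmn (0.48, adjusted p = 0.012) and Ctss (0.65, 0.025) passed, and Lgmn also passed without nAAC 3 and with TPM. With TPM the median log2 FC of all genes was 0.39. With median-ratio scaling Nfyc, a subunit of a class II promoter factor, fell beside the rise of Ifi30.

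The operation and the sex marked by Xist were partly mixed, so a fit with Xist as a covariate was run. In it Ifit2, Ifi27l2a, Ifitm2 and Ifitm3 passed, and Ifi27 (adjusted p = 0.081), Irf8 (0.18), Oasl2 (0.12), Igtp (0.11) and Tapbp (0.096) did not, where 13.4% of all genes were called higher and 3.29% lower. The 2 nAAC mice with the lowest mean over the interferon-stimulated genes were nAAC 1 (-0.26, as the mean difference from each gene's average on the log2 scale) and nAAC 2 (-0.01), and the 2 with the highest were nAAC 4 (0.57) and nAAC 5 (0.30). The sham mice lay between -0.37 and -0.02.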

How the data were processed

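LV libraries of 5 nAAC and 5 sham mice were grouped by their labels. The authors deposited 1 gene table per mouse in a StringTie abundance layout; the deposited coverage is a signal of reads per base, the deposited FPKM is scaled for depth and length, and the deposited TPM rescales FPKM within a library. The submitters' processing notes name build mm10; aligner and strand use are not given in the sources used here. Rows sharing a gene ID were summed (55401 genes). Reads could not be recovered, so no count model was used. The values log2(FPKM + 1) of the 11867 genes averaging 1 FPKM or more entered limma (version 3.58.1, R 4.3.3), whose variances were moderated along a trend with level. Adjustment over those genes followed Benjamini and Hochberg, and past the test means an adjusted p below 0.05. A log2 FC is on this scale and understates changes of low genes. Without read counts, no counting interval was given. Single values were compared by two-sided exact permutation tests (smallest p 0.0079). Each mouse gave 1 library, so n is mice. In simulated data 165 of 200 genes changed by 1 on the log2 scale were recovered, with 8 false calls. The changed genes were drawn from the more abundant ones, and noise was drawn separately for each gene and mouse. Smaller changes, changes in low genes and shifts of a mouse shared by many genes were not simulated, so the recovery does not carry over to them. Values in every mouse were given for interferon-stimulated genes past the test among the 10 largest differences, all class I and II genes tested and the 5 most abundant interferon-stimulated genes; further lists were given by counts and up to 4 genes. The genes and lists were chosen with earlier results of these data known. Overlaps and shared stretches came from GENCODE M21, and promoters from RefSeq (GRCm38.p6). Alternatives were TPM, other scalings, pseudocount 0.1, no filter, a replicate block, Xist as a covariate, removed length and GC trends, the DEG threshold and leaving out each mouse. A gene that the lists count is not reported here.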

Additional observations from a re-analysis of the deposited data

Results flagged for a closer look

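In each group of 5 mice, the gap between the most extreme mouse and the next was divided by the whole range and compared with Dixon's 95% critical value. Of 108 groups examined 4 passed, and chance gives about 5.4. Sham 1 was lowest for Ifit3 (ratio 0.861), sham 4 was highest for Ifitm1 (0.786) and for Ifitm3 (0.903), and nAAC 3 was highest for the summed erythroid markers (0.794).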

How the results depend on the processing

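Of the 8 interferon-stimulated genes past the test, leaving out 1 mouse at a time left counts of 7 to 10, with Igtp the 1 lost and Ifit2, Ifi27, Ifi27l2a, Ifitm2, Ifitm3, Irf8 and Oasl2 past the test each time. Xist as a covariate left 4 and the DEG threshold 1. With TPM 10 rose and none fell (Igtp lost, and Ifi35, Irf7 and Stat2 gained), and without the filter on low values 7 rose and Igtp was lost. TPM also moved the median log2 FC of all genes from 0.22 to 0.39. Relative to that median, the median of the interferon-stimulated genes was 0.052 with TPM and 0.050 with FPKM. The class I count of 1 (Tapbp) went to 0 with Xist as a covariate, with the length and GC trends removed, with median-ratio scaling and at the DEG threshold. The class II count of 0 became 1 without the filter on low values (Ciita). The cause of these moves was not tested. Relative to the median of all genes, the median log2 FC ranged over the alternatives from -0.070 to 0.24 for interferon-stimulated genes, from -0.15 to 0.28 for class I and from -0.36 to 0.20 for class II. Single genes changed sign in 64 of 738 refits, none of them past the test in either fit. With Xist as a covariate these were Ifit1 (-0.056), Ifih1 (-0.026), Irf1 (-0.092), H2-K1 (-0.033), H2-D1 (-0.0053), Tap1 (-0.027), H2-Aa (-0.16), H2-Ab1 (-0.037), H2-Eb1 (-0.23) and Cd74 (-0.34). With the length and GC trends removed they were Ifit1 (-0.077), Ifih1 (-0.063), Irf1 (-0.23), Irf9 (-0.058), Stat2 (-0.011), Parp14 (-0.0996), H2-K1 (-0.039), Tap1 (-0.15), Tap2 (-0.075), H2-Aa (-0.026), H2-Eb1 (-0.085) and Cd74 (-0.23). With median-ratio and upper-quartile scaling they were Ifit1 (-0.18 and -0.17), Ifih1 (-0.12 and -0.11), Irf1 (-0.17 and -0.15), Irf9 (-0.029 and -0.017), Trim30a (-0.021 and -0.012), Parp14 (-0.10 and -0.094), H2-Aa (-0.11 and -0.10), H2-Eb1 (-0.065 and -0.051) and Cd74 (-0.16 and -0.14). With TPM they were Ifi44 (0.082) and Xaf1 (0.15). Over the fits without 1 mouse each, sign changes gave ranges of -0.10 to 0.12 for Ifit1, -0.16 to 0.098 for Ifi44, -0.074 to 0.15 for Ifih1, -0.13 to 0.10 for Xaf1, -0.0083 to 0.20 for Parp14, -0.020 to 0.39 for H2-Aa, -0.028 to 0.46 for H2-Eb1 and -0.12 to 0.41 for Cd74.

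The replicate numbers did not pair the mice: deviations of same-numbered mice correlated at 0.19, -0.095, -0.32, -0.033 and 0.041, and 1 of 10 libraries correlated best with its own number. With a replicate block in the fit, 9 interferon-stimulated genes passed (Irf7 was added), 2 class I genes (H2-D1 was added) and 0 class II genes.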
